A study of Mus musculus with 15 samples.

Results

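The peaks described here are NRL-bound regions of the mouse retina that lie close to a transcription start site (TSS) without covering it in the authors' annotation. They were chosen by position alone: every peak of the deposited quantitation table whose distance to the nearest annotated TSS is 1 to 3000 bp, on either side. This took 1550 of 8996 peaks (17.2%). Of the rest, 4118 peaks overlap a TSS and 3328 lie beyond 3000 bp. Among the 1550, 888 lie upstream of the TSS (640 at 1 to 1000 bp and 248 beyond that) and 662 lie downstream (348 and 314). Below, near means 1 to 1000 bp and far means over 1000 and up to 3000 bp.

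The data are CUT&RUN libraries of dissociated whole retinas of C57BL/6J mice, probed with an anti-NRL antibody at postnatal day 2, 4, 10 or 28 (P2, P4, P10 and P28). CUT&RUN uses an antibody to bring a nuclease to a chromatin protein inside cells, and the fragments it releases are sequenced. No genetic change, drug or other antibody enters the comparison, so age is the only factor, and the title of the series asks how NRL occupancy develops. The labels list 15 libraries; 8 of them, 2 per age, have columns in the table (replicates 3 and 4 at P2, P4 and P28, replicates 1 and 4 at P10), and 7 were not analysed here. Whether the replicates are different animals is not stated in the labels, and p-values therefore cover only the spread among these libraries, which could be technical.

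NRL is a basic leucine zipper (bZIP) transcription factor of the Maf family. It is expressed in rod photoreceptors, where with CRX and NR2E3 it activates rod genes, and retinas without it form cone-like cells in place of rods. Maf proteins bind DNA through a TGC-flanked element related to the AP-1 site, and CRX binds TAATCC. Whole retina also holds cones, bipolar cells, other neurons and Müller glia, and fewer NRL-bearing cells and less NRL per cell cannot be told apart in these libraries.

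Some of these peaks sit in the bases immediately before a RefSeq start, and 4 stretches are shown because the peaks they belong to are described below: Grk1 and Unc119 as rod genes, Tomm20 as a peak holding 3 searched motifs in a row, and Inpp5e as a peak that was highest at P28. Each is the part of the peak inside the 250 bases before the RefSeq start (GRCm38.p6), written 5′ to 3′ on the strand of the gene. Capitals mark TAATCC (or its complement GGATTA), the AP-1 site TGANTCA and the Maf core TGCTGA, searched on both strands.
Tomm20, chr8:126945922-126946171, minus strand: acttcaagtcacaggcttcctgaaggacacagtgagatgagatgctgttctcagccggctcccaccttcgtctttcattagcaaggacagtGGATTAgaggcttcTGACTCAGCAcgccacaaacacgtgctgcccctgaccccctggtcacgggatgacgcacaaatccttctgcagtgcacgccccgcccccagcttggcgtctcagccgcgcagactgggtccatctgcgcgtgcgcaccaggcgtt
Unc119, chr11:78345334-78345583, plus strand: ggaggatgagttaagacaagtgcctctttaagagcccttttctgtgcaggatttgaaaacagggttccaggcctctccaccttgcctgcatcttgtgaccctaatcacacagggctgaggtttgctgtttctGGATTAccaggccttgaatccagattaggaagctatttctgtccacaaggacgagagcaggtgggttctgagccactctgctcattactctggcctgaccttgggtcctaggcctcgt
Grk1, chr8:13404831-13405058, plus strand: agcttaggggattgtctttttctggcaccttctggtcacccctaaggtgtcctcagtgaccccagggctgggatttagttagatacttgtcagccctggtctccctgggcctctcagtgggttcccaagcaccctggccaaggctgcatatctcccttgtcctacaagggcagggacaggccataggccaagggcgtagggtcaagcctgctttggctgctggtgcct
Inpp5e, chr2:26409208-26409377, minus strand: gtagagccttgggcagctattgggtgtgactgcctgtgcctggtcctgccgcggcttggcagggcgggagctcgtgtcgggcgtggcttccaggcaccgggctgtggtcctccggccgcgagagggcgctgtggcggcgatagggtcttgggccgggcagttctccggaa
In the Tomm20 stretch the AP-1 letters and the complement of the Maf core overlap, giving 1 run of capitals after GGATTA. The Unc119 stretch holds GGATTA, and the letters searched for are not in the Grk1 and Inpp5e stretches. Over the 268 such windows with at least 50 bases of a peak, TGCTGA was present in 14.2%, against 14.9% of the 21262 windows before protein-coding genes. TGANTCA was present in 5.22% against 6.13%, and TAATCC in 7.46% against 5.81%. GGGCGG, the letters of an Sp or KLF site, was present in 76.9% against 42.6%, CCAAT (NF-Y) in 44.4% against 35.4% and TGACGTCA (CRE) in 4.85% against 1.92%. Windows were counted over their whole 250 bases, so a match need not lie inside the peak.

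The 1550 peaks were assigned to 1415 genes by the authors' annotation, of which 1296 had 1 such peak, 106 had 2 and 13 had 3 or more. Bicdl1, Epb41 and Tdrd7 had 4 each. The median width was 265.5 bp, against 427 bp for peaks overlapping a TSS and 253 bp for peaks beyond 3000 bp. Of the assigned genes, protein-coding genes took 92.8% of peaks, with 80 peaks at lncRNAs and 24 at miRNAs. All 640 near upstream peaks carry the authors' promoter label. Far upstream peaks lay in introns (106 peaks, 42.7%, of which 81 in an intron of the assigned gene itself, before another of its starts) or in distal intergenic DNA (96 peaks, 38.7%). Near downstream peaks carry the promoter label in 223 cases (64.1%), and far downstream peaks lay mostly in introns (225 peaks, 71.7%, of which 209 in the assigned gene).

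The start nearest a peak was not always a RefSeq start. Of the 1510 peaks on chromosomes covered by the RefSeq table, 91 have a RefSeq start inside them, 65 of these a start of the assigned gene, as at Tomm20 and Inpp5e. Of the 1218 peaks whose gene has a start in the RefSeq table, 896 (73.6%) lie within 3000 bp of it, 275 lie more than 3000 bp downstream and 47 more than 3000 bp upstream. This share was 84.5% for near upstream, 57.0% for far upstream, 75.4% for near downstream and 61.4% for far downstream peaks. The Pde6b peak at +909 lies 42913 bp into the gene by RefSeq, and the Inpp5d peak at +1605 lies 90634 bp in, whereas the peaks of Prph2 at +1634 and Gnb5 at +2385 have the same distance in both annotations. The Unc119 peak, at -1021 by the authors' annotation, covers all 250 bases before a RefSeq start of that gene. The side can differ too. By RefSeq the Nr2e3 peak at +1011 lies at -9267, and those of Slco4a1 (-2479), Hsdl1 (-2196) and Mitf (-2857) at +8615, +2533 and +7845. Of 186 far upstream peaks 63 lie more than 3000 bp downstream of the RefSeq start. Sides given here are those of the authors' annotation.

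Values are RPKM, reads scaled to the width of the peak and to the library. Reads inside the 1550 peaks numbered 11884 and 7604 in the P2 libraries and 12938 and 24443 in those of P4. They numbered 35482 and 41604 in those of P10 and 14840 and 14424 in those of P28. The P10 libraries thus hold the most reads in peaks, which is not the total depth. The library scales behind RPKM were 6.35e+06 and 8.01e+06 at P10, against 7.88e+06 and 7.00e+06 at P4. At the median width 3 reads correspond to 1.41 to 2.15 RPKM, so lower values rest on 1 or 2 reads in a peak of that width. Intervals and read floors given below cover counting error only. The correlation of log2(RPKM + 1) between the 2 libraries of an age, across the 1550 peaks, was 0.58 (P2), 0.71 (P4), 0.88 (P10) and 0.70 (P28); peaks are not independent replicates. P4 replicate 4 had a higher median than P4 replicate 3 in every class. With 2 libraries against 2 an exact permutation test cannot go below p = 0.333, so calls come from the limma fit across all 8996 peaks, which shares its estimate of the spread, with Benjamini-Hochberg adjustment and a threshold of 0.05.

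The median NRL signal of these peaks was highest at P10. How the peaks came into the table bears on this: 841 of the 1550 are in the authors' P10 list and in no other, so a P10 maximum is favoured by the choice of peaks. This also bears on p-values of single peaks below. In the P10 list alone are those of Slco4a1, Ccdc126 at +2099, Nr2e3 at +1763, Nrl, Gnat2, Gnb3, Dbp at +184 and Tef. So are those of Syp, E2f3, Fam110a, Crtc3, Prpf4b, St8sia1 and Slc16a6 at +1279. Those of Inpp5e and Slc16a1 are in the P28 list alone. Those of Adamts1 and Pou5f1 are in the P4 list alone, and that of Mitf is in the P2 list alone. The lists are not given for every peak named. The median over the 1550 peaks was 2.31 and 2.16 RPKM at P2, 2.61 and 4.98 RPKM at P4, 7.73 and 7.71 RPKM at P10 and 3.80 and 3.66 RPKM at P28. The P10 libraries lie above every other library, and the 2 P28 libraries lie inside the range of the P4 libraries. The mean of the age was highest at P10 for 1228 peaks (79.2%), at P28 for 178 (11.5%), at P4 for 117 and at P2 for 27. Among peaks overlapping a TSS the share highest at P10 was 65.0% and the share highest at P28 was 28.7%. In the 709 peaks outside the P10-only set the median was 2.96 and 2.90 RPKM at P2, 3.64 and 6.84 RPKM at P4, 8.34 and 8.27 RPKM at P10 and 4.84 and 4.65 RPKM at P28. Of these 61.6% were highest at P10 and 20.9% at P28, against 56.7% and 35.2% of the TSS peaks outside that set.

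**Figure D1:**
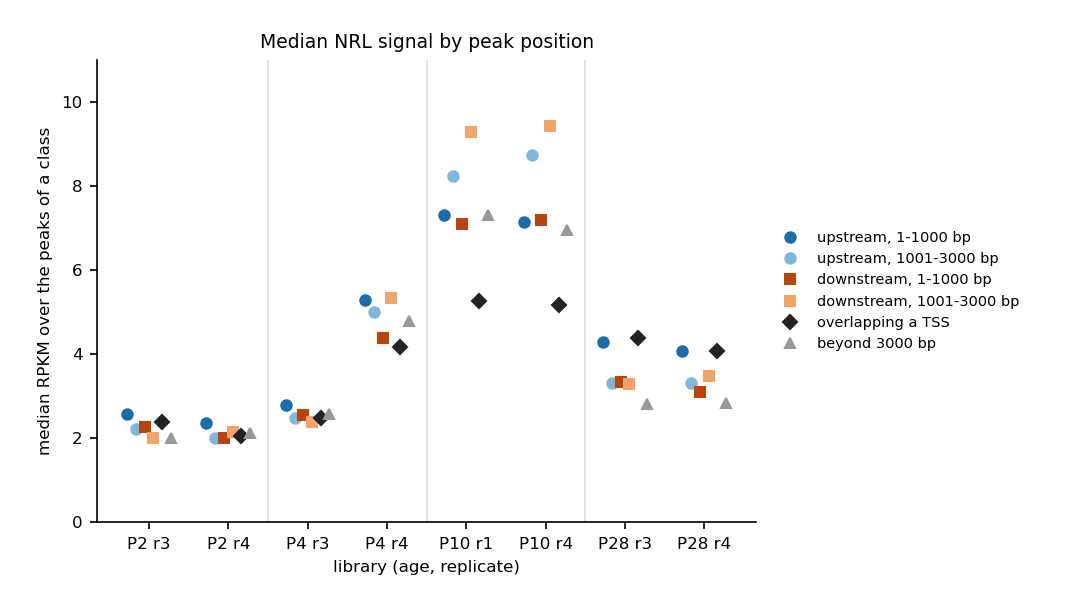
Median RPKM over peaks in each of the 8 libraries (x axis: age; y axis: median RPKM), for the 4 classes of peaks 1 to 3000 bp from a TSS and, for comparison, peaks overlapping a TSS and peaks beyond 3000 bp. At P10 near upstream peaks had medians of 7.31 and 7.14 RPKM and far downstream peaks 9.29 and 9.42; at P28 near upstream peaks were highest of the 4 classes, at 4.30 and 4.06. Peaks listed at P10 alone are included.

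The classes changed places between ages. At P10 the near classes had medians of 7.31 and 7.14 RPKM upstream and 7.08 and 7.19 downstream, and the far classes stood above them at 8.24 and 8.74 upstream and 9.29 and 9.42 downstream. At P28 near upstream peaks stood at 4.30 and 4.06, against 3.34 and 3.10 for near downstream peaks, and the far classes at 3.31 in both libraries upstream and 3.28 and 3.47 downstream. Peaks overlapping a TSS stood at 5.26 and 5.16 RPKM at P10, below all 4 classes, and at 4.39 and 4.06 at P28, level with near upstream peaks.

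Near peaks were below far peaks in both P10 libraries and, by less, in P4 replicate 4. The difference of the 2 medians (near minus far, log2 scale) was 0.15 and 0.06 in the P2 libraries, 0.10 and -0.06 in those of P4, -0.24 and -0.31 in those of P10 and 0.21 and 0.12 in those of P28. Its mean was 0.11 ± 0.07, 0.02 ± 0.11, -0.27 ± 0.05 and 0.17 ± 0.06 at P2, P4, P10 and P28 (SD, n = 2 each), so that the P10 libraries do not overlap those of any other age. Upstream minus downstream was 0.15 and 0.09 in the P2 libraries, 0.08 and 0.10 in those of P4, -0.07 and -0.10 in those of P10 and 0.24 and 0.19 in those of P28. Again the P10 libraries were the ones below 0 and the P28 libraries the highest. Between near peaks alone, upstream minus downstream averaged 0.30 ± 0.01 at P28, against 0.02 ± 0.03 at P10. Between far peaks alone it averaged -0.02 ± 0.05 at P28, against -0.13 ± 0.04 at P10. Outside the P10-only set near minus far was -0.51 and -0.63 at P10, and it was also below 0 in all P4 and P28 libraries and in P2 replicate 4 (the lowest of these at -0.22). Upstream minus downstream there was -0.053 and -0.20 at P10, which overlaps the P4 libraries at 0.023 and -0.090. These are differences of class medians per library, and no p is given for them.

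**Figure D2:**
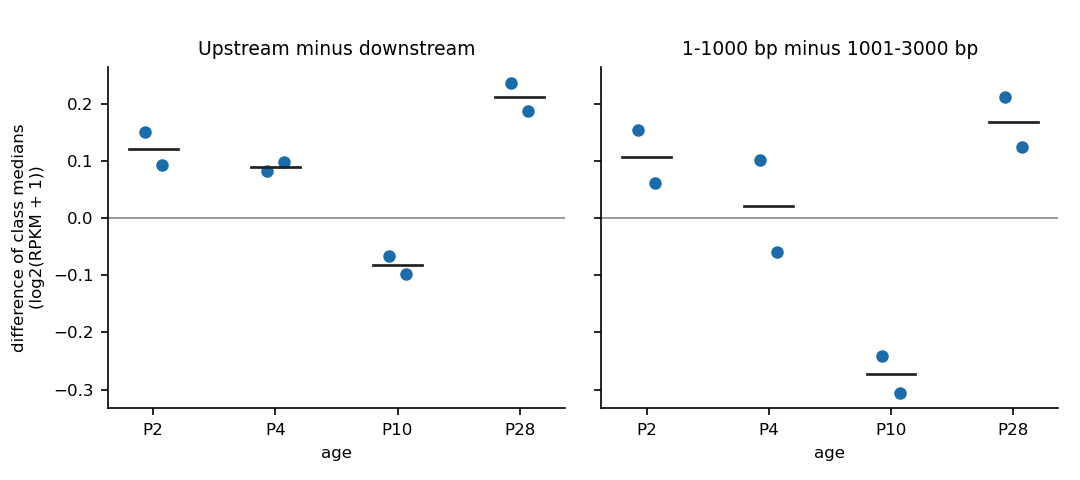
Differences of median log2(RPKM + 1) between classes in each library, by age; points are libraries and bars their mean (n = 2). In both panels, upstream minus downstream and near minus far, the 2 P10 libraries lie below 0 and below the libraries of the other ages. Peaks listed at P10 alone are included, and outside that set near minus far was below 0 at P28 too.

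In the 58 genes with peaks on both sides the P10 libraries also gave the lowest values. The median over these genes of upstream minus downstream was 0.28 and -0.13 in the P2 libraries, 0.15 and 0.01 in those of P4, -0.18 and -0.30 in those of P10 and 0.03 and 0.14 in those of P28 (log2). At P10 the downstream peak was the higher one in 33 of 58 genes in both libraries. Slc16a6, a member of the monocarboxylate transporter family, has peaks at -203 and +1279. Its upstream minus downstream difference was -1.67 and -1.99 at P28, against -1.68 and -1.24 at P10.

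The authors' peak lists, 1 per age, decide which peaks are in the table, so presence in them describes how the set was put together and is no second readout of the level. Of the 1550 peaks 10.6% were in the P2 list (Wilson 95% interval 9.21 to 12.3%), 27.8% in that of P4 (25.6 to 30.1%), 86.5% in that of P10 (84.7 to 88.1%) and 27.6% in that of P28 (25.4 to 29.9%). The P10 list alone holds 841 of them (54.3%), and 80 are in all 4 lists. At P28 near upstream peaks were listed in 31.2% of cases, near downstream peaks in 25.3%, and far peaks in 25.0% upstream and 24.8% downstream; the interval of near upstream peaks, 27.8 to 34.9%, overlaps those of the other classes. Peaks overlapping a TSS were in the P28 list in 55.9% of cases. The lists also depend on the depth of the libraries behind them, whose part was not tested.

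**Figure D3:**
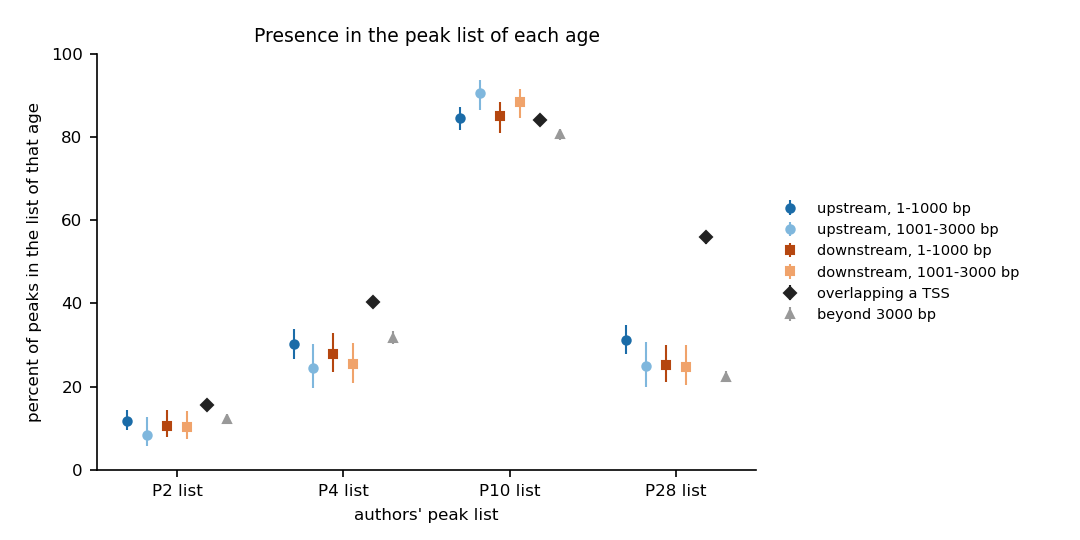
Share of peaks (percent, with Wilson 95% bars) present in the authors' list of each age, by class. All 4 classes within 3000 bp reach 84.7 to 90.7% in the P10 list and 24.8 to 31.2% in the P28 list, where peaks overlapping a TSS reach 55.9%.

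At P4 against P2, no peak passed the threshold by limma with Benjamini-Hochberg adjustment, among the 1550 or in the whole table (0% of all peaks). At an unadjusted p under 0.05, 247 of the 1550 peaks were higher and 7 lower, against 14.4% higher and 0.778% lower over all peaks. With limma-voom, run on whole reads, 5 were called. The fit without P4 replicate 3 called 185, without P2 replicate 3 it called 46, without P28 replicate 4 it called 18, without P28 replicate 3 it called 15 and without P2 replicate 4 it called 2. The median log2 change of the 1550 peaks was 0.53, against 0.48 over all peaks.

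The peaks with the lowest unadjusted p in this comparison included those of Pde6b, Zbed4 and Slco4a1. Slco4a1, an organic anion transporter, has a peak at -2479 with 3.55 and 7.18 RPKM at P4, against 0.704 and 0 at P2 (adjusted p = 0.080, limma). Both P4 libraries are above the P2 libraries, whose values rest on 2 reads in all. From these reads the P4 over P2 ratio was 12.4 (95% interval 3.13 to 107.6).

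At P10 against P4, 356 of the 1550 peaks were higher (23.0%) and 9 lower (0.58%), where 15.6% of all peaks were higher and 1.51% lower. In either direction these are 365 members, against 17.1% of all peaks. The P10 libraries hold more reads in peaks than the P4 libraries, while the library scales of the 2 ages overlap. The part of depth in these calls was not tested. The share higher was 17.5% for near peaks and 32.6% for far peaks, 20.8% upstream and 25.8% downstream. It was 5.37% for peaks overlapping a TSS and 24.9% beyond 3000 bp. The median log2 change was 0.93 over the 1550 peaks (0.82 near, 1.15 far), against 0.73 over all peaks.

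That general shift matters for the counts. The median over all peaks moved by 0.48 at P4 against P2, 0.73 at P10 against P4, -0.69 at P28 against P10 and 0.57 at P28 against P2, and the sources used here do not give the scaling applied by the authors. With each library centred on its median, 81 of the 1550 peaks were higher and 23 lower at P10 against P4, where 2.88% of all peaks were higher and 3.26% lower. The number called also turned on single libraries: 365 with all 8, but 59 without P4 replicate 3, 666 without P4 replicate 4, 63 without P10 replicate 1 and 95 without P10 replicate 4. Outside the peaks listed at P10 alone, 103 of 709 were higher and 9 lower. Over all peaks, those listed at P10 alone included, 15.6% were higher and 1.51% lower. The matching share of all peaks outside that set is not given here, so no excess of the members is shown there. The far share exceeded the near share in all 15 settings compared, and the downstream share exceeded the upstream share in 14 of them. The settings reuse the same libraries and are not 15 separate checks. With a pseudocount of 0.1, which is among them, 1 of the 1550 peaks was called, so its shares rest on that peak alone. None of these settings left out the peaks listed at P10 alone. The 2 sides also differ in distance, with a median of 316.5 bp upstream and 908 bp downstream. At equal distance neither side was the higher throughout. At 501 to 1000 bp 32.3% were higher upstream and 27.2% downstream, and at 2001 to 2500 bp 16.9% and 37.5%. The part of distance was not tested.

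Most peaks of rod genes were higher at P10 than at P4. Of 40 listed rod genes, 18 had a peak 1 to 3000 bp from a TSS, 19 peaks in all, 10 of them far downstream. Of these 16 were higher at P10 than at P4 and 0 lower, 11 of them also with the libraries centred, and the median log2 change was 2.20; over all peaks the share higher was 15.6%. Across the 19 peaks the median was 25.3 and 21.9 RPKM at P10, against 3.79 and 7.24 at P4. The peaks that did not pass were those of Rp1 (log2 change 1.54, adjusted p = 0.055, limma), Grk1 at +1012 (1.57, 0.051) and Rdh8 (1.57, 0.063).

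Pde6a and Pde6b encode the catalytic subunits of the rod cGMP phosphodiesterase. The Pde6a peak at -2734 (chr18:61217303-61217581, distal intergenic) had 1.35 and 0 RPKM at P2, 1.37 and 2.56 RPKM at P4, 33.9 and 17.4 RPKM at P10 and 19.4 and 21.1 RPKM at P28. P10 and P28 are both clear of P2 and P4, with log2 changes of 3.13 ± 0.55 at P10 against P4 (adjusted p = 0.00105, limma) and 3.79 ± 0.55 at P28 against P2 (adjusted p = 0.000134, limma). Its P2 level rests on 3 reads, and the P28 over P2 ratio of reads was 24.9 (8.17 to 123.4). The Pde6b peak at +909 (chr5:108431286-108431590, in a 3′ UTR by the authors' annotation) had 1.65 and 0 RPKM at P2, 7.49 and 10.3 RPKM at P4, 46.0 and 35.6 RPKM at P10 and 16.8 and 11.8 RPKM at P28. Every P4 library exceeds every P2 library and every P10 library exceeds the rest. The log2 change was 2.08 ± 0.56 at P10 against P4 (adjusted p = 0.0153, limma).

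Gnb5, the G protein beta subunit that pairs with RGS9 in shutting off transducin, has an intronic peak at +2385 (chr9:75308673-75308991). It had 10.9 and 9.39 RPKM at P10, against 1.19 and 0.895 at P4, with no overlap (log2 change 2.44 ± 0.46, adjusted p = 0.00167, limma). Prph2, the disc rim protein peripherin-2, has an intronic peak at +1634 (chr17:46912112-46912749) with 53.3 and 42.8 RPKM at P10, against 6.57 and 12.1 at P4. Its log2 change was 2.29 ± 0.53 (adjusted p = 0.00613, limma). Grk1, a receptor kinase of photoreceptors, has a peak at -23, the stretch shown above, with 18.7 and 14.8 RPKM at P10, against 2.87 and 3.63 at P4. That peak rose by 2.06 ± 0.51 (adjusted p = 0.00864, limma).

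Among the other called rod peaks, Cnga1, the rod cyclic nucleotide-gated channel subunit, had 74.9 and 64.7 RPKM at P10, against 7.84 and 24.7 at P4 (-974; log2 change 2.23). Reep6, which is needed for rod membrane trafficking, had 71.9 and 58.6 at P10, against 9.56 and 18.5 at P4 (+1575; 2.20). Unc119, a chaperone of lipid-modified transducin, had 79.4 and 54.6 at P10, against 11.1 and 27.9 at P4 (-1021; 1.84). In all 3 the P10 libraries lie above both P4 libraries, and P4 replicate 4 is the higher P4 library.

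**Figure D4:**
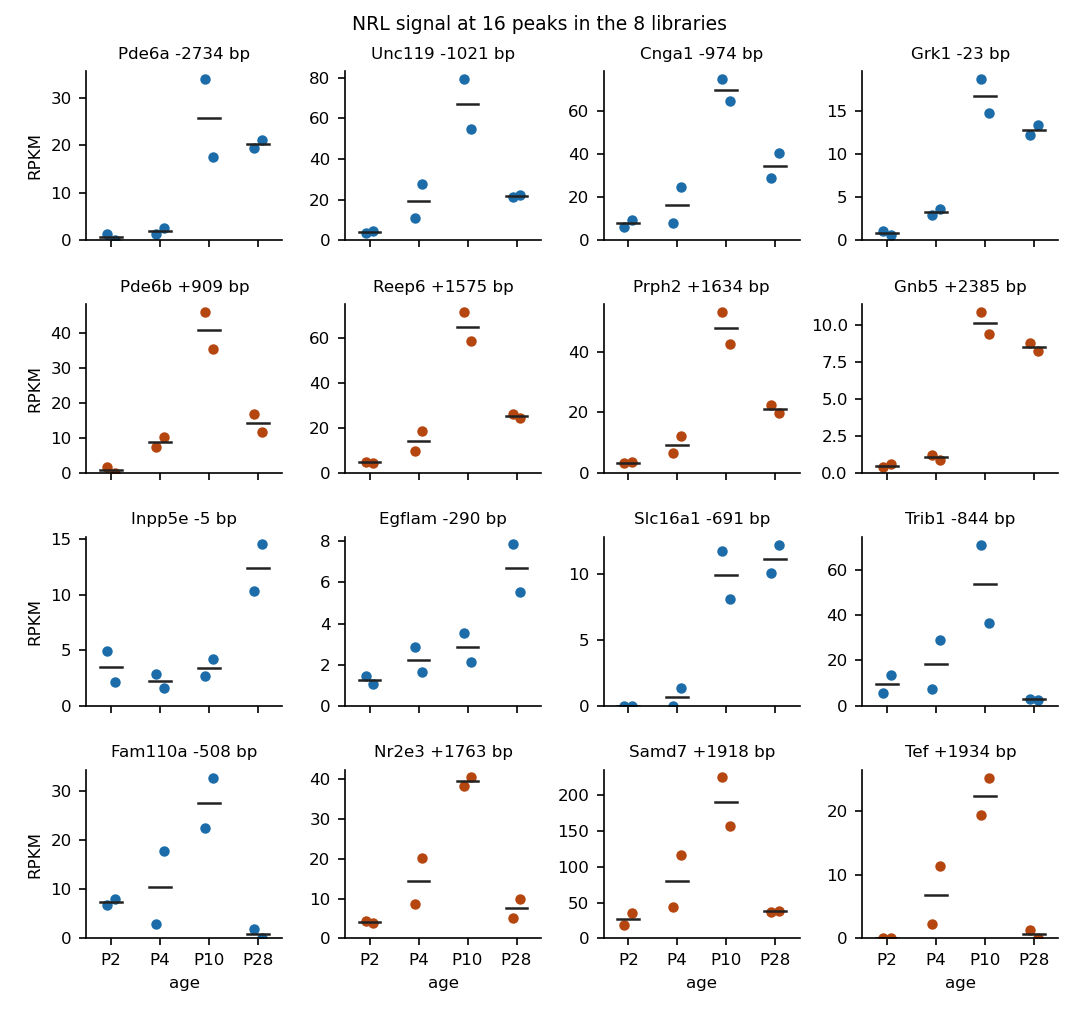
RPKM of 16 peaks in the 8 libraries by age (blue: upstream of the TSS; brown: downstream; points are libraries). The 8 rod gene panels have their highest mean at P10 and stay above P2 at P28, for example Prph2 with 3.16 and 3.58 RPKM at P2, 6.57 and 12.1 RPKM at P4, 53.3 and 42.8 RPKM at P10 and 22.3 and 19.8 RPKM at P28; Trib1 and Tef reach 3.06 RPKM or less at P28, and Inpp5e and Egflam are highest at P28.

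The largest rises among the named peaks lay at other genes. The Ccdc126 peak at +2099 had 49.4 and 47.4 RPKM at P10, against 0.847 and 2.86 at P4 (chr6:49321406-49321555; log2 change 4.21 ± 0.58, adjusted p = 0.00016, limma). This peak is in the P10 list alone, so its rise is favoured by the choice of peaks. Inpp5d, a phosphoinositide 5-phosphatase, had 75.5 and 47.9 at P10, against 2.49 and 4.40 at P4 (chr1:87710946-87711302; 3.82 ± 0.56). Neither overlaps between ages. The second Ccdc126 peak, at +702, had 112 and 103 RPKM at P10, against 22.6 and 56.5 at P4, and did not pass (adjusted p = 0.052, limma). Both peaks lie in intron 1 of the gene, and the one at +702 is the higher in every library.

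Other large rises among the named peaks were at Hsdl1, Pfkfb2 and Arl4d. Hsdl1, a hydroxysteroid dehydrogenase-like protein, had 34.9 and 46.5 RPKM at P10, against 0.531 and 3.58 at P4 (-2196; log2 change 3.96). Pfkfb2, which makes and degrades the glycolytic activator fructose 2,6-bisphosphate, had 32.9 and 26.8 at P10, against 0.804 and 2.71 at P4 (+1948; 3.57). Arl4d, a small GTPase of the ARF family, had 40.2 and 41.8 at P10, against 2.03 and 5.32 at P4 (+2674; 3.26). All were called, with no overlap between the ages. Of the glycolysis list 2 of 7 peaks were higher and 0 lower, at Slc16a1, the monocarboxylate transporter MCT1, and at Pkm, pyruvate kinase. Over all peaks 15.6% were higher, and 7 peaks are few.

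The Slc16a1 peak at -691 had no reads in 3 of the 4 earlier libraries: 0 and 0 RPKM at P2, 0 and 1.33 RPKM at P4, 11.8 and 8.16 RPKM at P10 and 10.1 and 12.2 RPKM at P28 (chr3:104637871-104637977). P10 and P28 overlap with each other and not with P2 or P4. The P10 over P4 ratio of reads was 15.5 (2.39 to 654), and P28 was at least 5.25-fold higher than P2, taking 3 reads over the P2 group as the floor. Mitochondrial import was represented by Tomm20, whose peak at -13 is shown above and had 37.3 and 30.0 RPKM at P10, against 4.18 and 15.9 at P4 (log2 change 1.88 ± 0.58, adjusted p = 0.0294, limma). Of 3 mitochondrial peaks it was the 1 called, where 15.6% of all peaks were higher.

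Peaks of photoreceptor transcription factors were not called at P10 against P4: 0 of 8 peaks at 7 genes, with a median log2 change of 1.27. Over all peaks 15.6% were higher, and with so few peaks a count of 0 shows no difference from that share. The Nr2e3 peak at +1763 (chr9:59946881-59947028, exonic) had 38.3 and 40.5 RPKM at P10, against 8.58 and 20.3 at P4 (adjusted p = 0.061, limma). Samd7, a Polycomb-associated repressor of non-rod genes in rods, had 225 and 156 at P10, against 43.2 and 116 at P4 (+1918; adjusted p = 0.088, limma). Nrl itself has a peak at -1757 with 9.53 and 13.6 RPKM at P10, against 2.05 and 6.91 at P4 (adjusted p = 0.080, limma). In all 3 both P10 libraries exceed both P4 libraries, but P4 replicate 4 lies well above P4 replicate 3.

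Lists of other cell types held few peaks. The Müller glia list (14 genes) and the list of microglia and vessel genes (18 genes) had 0 peaks within 1 to 3000 bp of a TSS. The bipolar list (18 genes) had 1 and the amacrine, horizontal and ganglion list (21 genes) 1. The cone list (18 genes) had 3 and the progenitor list (25 genes) 3. The share of all genes with such a peak is not given here, so no lack of peaks at these short lists is shown. Of the cone peaks, Gnat2, cone transducin alpha, had 11.8 and 11.5 RPKM at P10, against 1.47 and 4.95 at P4 (-45; log2 change 1.73 ± 0.51, adjusted p = 0.0241, limma). Among bZIP genes 3 of 11 peaks were higher, where 15.6% of all peaks were. These were Fosb at +691, Dbp at +184 and Tef at +1934. Fosb, a subunit of AP-1, had 17.8 and 18.4 RPKM at +691 at P10, against 0.399 and 7.63 at P4. Its other peak, at -5, had 7.47 and 4.37 at P10, against 4.97 and 4.42 at P4, and was not called (adjusted p = 0.72, limma). Dbp and Tef are clock-controlled factors of the PAR bZIP family. The other Dbp peak, at -11, was not called (adjusted p = 0.26, limma).

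The list counts at P10 against P4 went on as follows. Synapse genes had 4 of 7 peaks higher, cilium genes 3 of 8, splicing genes 2 of 8, chromatin genes 2 of 6, cell cycle genes 1 of 5, trafficking GTPases 1 of 4 and ribosomal protein genes 1 of 1, with 0 lower in each, where 15.6% of all peaks were higher. With the libraries centred 1 cell cycle peak and 1 GTPase peak were still called, and 0 of the synapse, cilium, splicing, chromatin and ribosomal protein peaks. Syp, the synaptic vesicle protein synaptophysin, had 8.96 and 7.47 RPKM at P10, against 0.760 and 1.28 at P4 (+1090; log2 change 2.20 ± 0.46). Hnrnpl, a splicing regulator, had 35.1 and 29.2 at P10, against 2.76 and 8.54 at P4 (-688; 2.46 ± 0.61). E2f3, a cell cycle transcription factor, had 30.3 and 33.8 at P10, against 2.87 and 10.5 at P4 (-780; 2.31 ± 0.56). The 3 genes were above both P4 libraries in both P10 libraries.

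Few peaks fell at P10. Zfp41, a zinc finger gene, has a peak at -1560 with 0 and 2.57 RPKM at P10, against 7.85 and 25.0 at P4, and it fell by 3.01 ± 0.59 (log2; adjusted p = 0.00271, limma). Adamts1, a secreted metalloprotease, has one at +550 with 2.24 and 2.65 RPKM at P10, against 14.4 and 15.2 at P4. It fell by 2.20 ± 0.52 (adjusted p = 0.00659, limma). The Adamts1 peak is in the P4 list alone, and the Zfp41 peak in those of P2 and P4 alone. Their falls at P10 are thus favoured by the choice of peaks.

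At P28 against P10, 425 of the 1550 peaks were lower (27.4%) and 16 higher (1.03%), where 20.7% of all peaks were lower and 1.29% higher (441 in either direction, against 21.9% of all peaks). This comparison shares its P10 libraries with the one before, as that one shares the P4 libraries with P4 against P2. The share lower was 22.2% for near peaks and 36.7% for far peaks, 23.9% upstream and 32.2% downstream, and it was lowest for near upstream peaks (18.4%, against 29.0% near downstream). It was 5.78% for peaks overlapping a TSS and 35.9% beyond 3000 bp. The median log2 change was -0.97 (near -0.81, far -1.24), against -0.69 over all peaks. With the libraries centred 179 were lower and 47 higher, where 8.56% of all peaks were lower and 4.28% higher.

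The number called was 441 with all libraries, 118 without P10 replicate 1, 143 without P10 replicate 4, 258 without P28 replicate 3 and 267 without P28 replicate 4. Outside the peaks listed at P10 alone 129 of 709 were lower and 16 higher. Over all peaks, those listed at P10 alone included, 20.7% were lower and 1.29% higher. The matching share of all peaks outside that set is not given here. In all 15 settings compared the far share exceeded the near share and the downstream share the upstream share. The settings reuse the same libraries and are not separate checks. None of these settings left out the peaks listed at P10 alone, whose calls are favoured by the choice of peaks. Such peaks make up 51.8% of near and 58.5% of far peaks, and 52.4% upstream and 56.8% downstream. Their part in these differences was not tested.

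**Figure D5:**
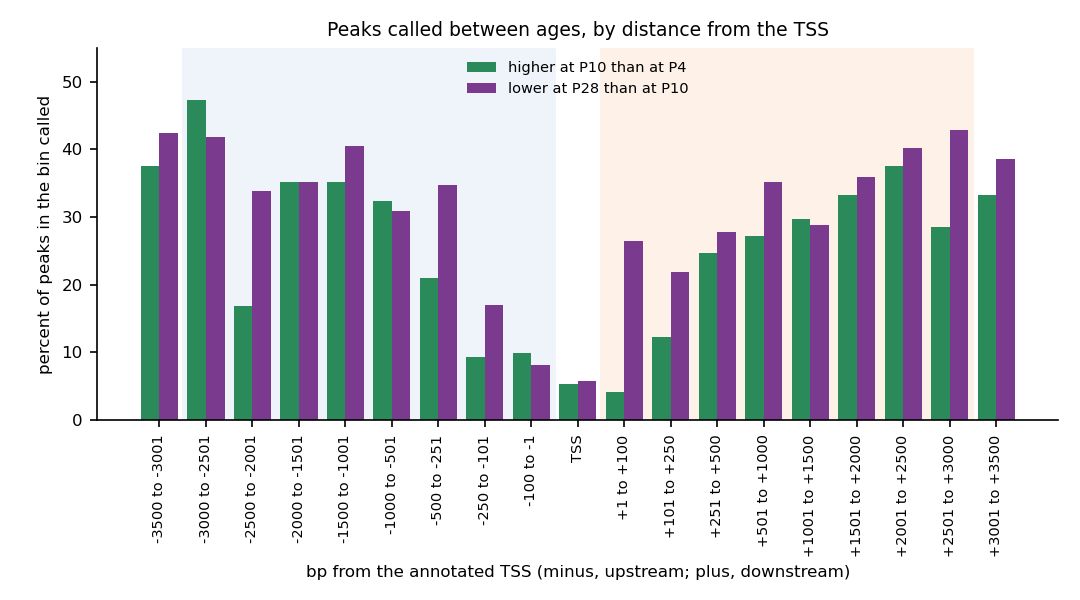
Percent of peaks called in bins of signed distance from the TSS (x axis, bp; shaded: 1 to 3000 bp), green for higher at P10 than at P4 and purple for lower at P28 than at P10. Within 100 bp upstream 9.86% were higher and 8.16% lower, while at 501 to 1000 bp upstream 32.3% and 30.8% were, and downstream both shares are also larger in the outer bins than next to the TSS.

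The share called was smaller close to the TSS than farther away, by the shares of the bins. Upstream, 8.16% of peaks at 1 to 100 bp were lower at P28 than at P10, 16.9% at 101 to 250 bp, 34.7% at 251 to 500 bp and 30.8% at 501 to 1000 bp. Upstream bins beyond 1000 bp stood at 33.8 to 41.8%. Downstream the first bin already stood at 26.5% (49 peaks), and the next were at 21.9%, 27.7% and 35.2% out to 1000 bp. From there the downstream bins went up from 28.8% at 1000 to 1500 bp to 40.3% at 2000 to 2500 bp and 42.9% in the last. For higher at P10 than at P4 the downstream bins ran 4.08%, 12.3%, 24.8%, 27.2%, 29.7%, 33.3% and 37.5% out to 2500 bp, and 28.6% in the last. No test of trend was made, and the bins include the peaks listed at P10 alone. At the outer limit, upstream peaks at 2501 to 3000 bp were lower in 41.8% of cases and those at 3001 to 3500 bp in 42.5%; downstream the values were 42.9% and 38.6%. For higher at P10 than at P4 these 4 bins gave 47.3%, 37.5%, 28.6% and 33.3%.

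At P28 against P10, 4 of the 19 rod peaks were lower and 0 higher, with a median log2 change of -1.01. This share is near the 20.7% of all peaks that were lower. They included Rdh8, a photoreceptor retinol dehydrogenase, Unc119 and Pde6g, the inhibitory phosphodiesterase subunit. Rdh8 had 3.80 and 1.51 RPKM at P28, against 22.7 and 30.6 at P10 (+1564; log2 change -2.98 ± 0.58, adjusted p = 0.00134, limma). It was the lowest of the rod list, and 1 rod peak was lower with the libraries centred. The change of Gnb5 was -0.23 ± 0.46 (adjusted p = 0.74), with 8.74 and 8.21 RPKM at P28, against 10.9 and 9.39 at P10. A p that misses the threshold does not show that these levels stayed equal.

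Of the 8 peaks of photoreceptor transcription factors 3 fell, where 20.7% of all peaks were lower, and 8 peaks are few. The Nr2e3 peak at +1763 had 5.23 and 9.96 RPKM at P28, against 38.3 and 40.5 at P10 (log2 change -2.29 ± 0.56, adjusted p = 0.00605, limma). Samd7 had 36.9 and 38.2 at P28, against 225 and 156 at P10 (-2.29 ± 0.57, adjusted p = 0.00721, limma). The second Nr2e3 peak, at +1011, had 5.18 and 3.29 at P28, against 13.7 and 12.5 at P10 (-1.45 ± 0.52, adjusted p = 0.0478, limma). In each the ages do not overlap. The Nrl peak had 4.37 and 3.30 at P28, against 9.53 and 13.6 at P10, and did not pass (adjusted p = 0.066, limma).

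The lowest changes were at genes of several kinds. Gldc, glycine decarboxylase, has an intronic peak at +1049 (chr19:30174082-30174380) with 15.6 and 17.2 RPKM at P2, 21.7 and 45.4 RPKM at P4, 71.1 and 53.4 RPKM at P10 and 3.11 and 3.29 RPKM at P28. P28 lies below every other library, and the log2 change was -3.90 ± 0.55 (adjusted p = 9.45e-05, limma). Trib1, a Tribbles pseudokinase, had 3.06 and 2.59 RPKM at P28, against 71.0 and 36.5 at P10 (-844; -3.77 ± 0.62, adjusted p = 0.000429, limma). Notch1, the receptor that keeps retinal progenitors undifferentiated, had 0.902 and 2.23 at P28, against 12.5 and 17.9 at P10 (+2785; -2.69 ± 0.54, adjusted p = 0.00147, limma). For these 3 genes the P28 libraries lie below all P2, P4 and P10 libraries.

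Some of the peaks that fell retained 1 or 2 reads. Fam110a had 1.84 and 0 RPKM at P28, against 22.5 and 32.7 at P10 (-508), a ratio of reads of 29.7 in favour of P10 (7.92 to 250.6). Tef had 1.36 and 0 RPKM at P28, against 19.4 and 25.2 at P10, with a ratio of 32.4 (5.46 to 1313), and Dbp at +184 had 1.41 and 1.49, against 12.9 and 17.0 at P10, with 10.5 (2.61 to 91.7). Dbp has another peak at -11, with 9.86 and 8.93 RPKM at P28, against 7.16 and 11.3 at P10, so its 2 peaks took different courses. Crtc3, a CREB coactivator, and Prpf4b, a kinase of splicing factors, also ended at 2 reads. Of the bZIP list 4 of 11 peaks were lower, where 20.7% of all peaks were lower.

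Peaks at cone and progenitor genes were among those that fell. Gnb3, cone transducin beta, had 3.16 and 3.34 RPKM at P28, against 24.7 and 14.4 at P10 (-583; log2 change -2.23 ± 0.55, adjusted p = 0.0070, limma), and 2 of 3 cone peaks and 2 of 3 progenitor peaks were lower. The lists of splicing genes (3 of 8), cilium genes (2 of 8), synapse genes (1 of 7), chromatin genes (1 of 6) and cell cycle genes (1 of 5) had lower peaks too. Over all peaks 20.7% were lower, the differences between lists were not tested, and these counts rest on few peaks. Mitf at -2857, the 1 peak of the pigment epithelium list, had 0 and 2.05 RPKM at P28, against 6.70 and 3.43 at P10 and was lower (adjusted p = 0.038, limma). Glycolysis, mitochondrial, trafficking GTPase and ribosomal protein peaks had 0 lower of 7, 3, 4 and 1.

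Inpp5e, a phosphoinositide 5-phosphatase of the primary cilium, was the peak that met the naming conditions among those higher at P28. At -5 (chr2:26409208-26409387) it had 4.90 and 2.11 RPKM at P2, 2.82 and 1.59 RPKM at P4, 2.63 and 4.16 RPKM at P10 and 10.3 and 14.6 RPKM at P28. Both P28 libraries exceed every other library, and the log2 change was 1.62 ± 0.51 at P28 against P10 (adjusted p = 0.0249, limma).

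At P28 against P2, 169 of the 1550 peaks were higher (10.9%) and 31 lower (2.00%), where 9.64% of all peaks were higher and 3% lower (either direction: 200 peaks, against 12.6% of all), so the share higher is near the background. It was 9.21% for near and 13.9% for far peaks. With the libraries centred 76 were higher and 107 lower, where 3.27% of all peaks were higher and 7.26% lower. The 200 calls became 108 without P2 replicate 4, 106 without P28 replicate 3 and 128 without P28 replicate 4. Outside the peaks listed at P10 alone 101 of 709 were higher and 27 lower, and the matching share of all peaks outside that set is not given here.

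Of the 19 rod peaks 15 were higher at P28 than at P2 and 0 lower, 10 of them with the libraries centred, and the median log2 change was 2.10. Pde6a was among them, with the values given above. St8sia1, the sialyltransferase that makes ganglioside GD3, had 16.3 and 12.1 RPKM at P28, against 0 and 0 at P2 (-2993), at least 5.95-fold higher with 3 reads over the P2 group as the floor. Slc16a6 at +1279 had 35.8 and 50.1 at P28, against 2.08 and 6.29 at P2 (log2 change 3.19 ± 0.57, adjusted p = 0.000819, limma). Egflam, pikachurin of the photoreceptor ribbon synapse, had 7.88 and 5.55 at P28, against 1.42 and 1.07 at P2 (-290; 1.77 ± 0.46, adjusted p = 0.0146, limma). All 3 genes have P28 libraries above both P2 libraries.

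Peaks lower at P28 than at P2 included Islr, an immunoglobulin and leucine-rich repeat protein, with 0.665 and 2.11 RPKM at P28, against 21.1 and 31.0 at P2 (+2795; log2 change -3.55 ± 0.56, adjusted p = 0.000277, limma). Tex26 had 2.10 and 2.66 at P28, against 19.1 and 25.8 at P2 (+411; -2.78 ± 0.58, adjusted p = 0.00315, limma). Pou5f1, which encodes the pluripotency factor OCT4, had 0 and 1.65 at P28, against 10.2 and 7.69 at P2 (-6), a ratio of reads of 11.4 in favour of P2 (1.69 to 488). These peaks belong to none of the retinal lists, and their P2 and P28 libraries do not overlap.

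Over all 4 ages an F test called 53.4% of the 1550 peaks, against 45.9% of all peaks. It called 45.4% of near and 67.4% of far peaks, 48.8% upstream and 59.7% downstream, with the peaks listed at P10 alone included. Distance from the RefSeq start ran alongside: at P28 against P10, 38.2% of peaks more than 3000 bp from one were called and 23.9% of those within 3000 bp.

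Peaks were set beside the TSS peak of their own gene in 362 pairs at 323 genes. Their median was 2.22 RPKM, against 2.40 for the TSS peak, at P2, 3.96 against 4.04 at P4, 9.81 against 7.29 at P10 and 4.10 against 4.70 at P28. The flanking peak was the higher of the pair in 46.4, 47.5, 66.9 and 44.2% of pairs at P2, P4, P10 and P28. Outside the P10-only set (151 pairs) these shares were 60.3, 64.9, 66.9 and 64.9%, so that the excess of P10 over the other ages is smaller there. At P10 the share in all pairs was 78.2% for far downstream peaks and 58.0% for far upstream peaks. At Gnb5 the peak at +2385 had 10.9 and 9.39 RPKM at P10, against 4.92 and 6.38 for the peak over the TSS, and at Tef the peak at +1934 had 19.4 and 25.2, against 11.3 in both libraries. At P10 Gnb5 and Tef were thus higher in the first intron than over the start. At P28 the Tef peak at +1934 was the lower one, with 1.36 and 0 RPKM, against 6.92 and 3.66 over the TSS.

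The highest levels in each class belonged to a few loci. Far upstream the strongest was Ccdc86 at -2621, with 52.0 and 67.6 RPKM at P28, against 254 and 186 at P10 (chr19:10951887-10952351). Far downstream these were Samd7, Gm7616, a lncRNA with a peak at +1413 next to Nr2e3, and Rp1, an axonemal microtubule protein, at +2366 with 69.3 and 86.1 at P28, against 174 and 126 at P10. Near upstream Ostc, an oligosaccharyltransferase subunit, at -208 had 40.7 and 44.4 at P28, against 105 and 90.9 at P10, and near downstream Ap2m1, a clathrin adaptor subunit, at +347 had 38.9 and 69.7 at P28, against 159 and 115 at P10. Of these 6 peaks those of Ccdc86 and Samd7 passed at P28 against P10.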

How the data were processed

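Per the labels' protocols, CUT&RUN with an anti-NRL antibody was done on dissociated retinal cells. Per the submitters' processing notes, the tools include MACS2 2.2.5 and bedtools 2.29.0, Bowtie2 2.3.5.1, Picard 2.20.8, SAMtools 1.9 and Trimmomatic 0.38, and the builds are GRCm38.p6 and ASM584v2; no roles are named there, and the sources used here do not give the tool that annotated the peaks.

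The deposited table gives RPKM for 8996 peaks, as its values show. For 100% of values whole reads could be recovered (within 0.001), and each column after the first had been divided by widths shifted by 39 rows against the column before. RPKM was rebuilt from the reads, the width of the same row and the authors' library scale. The signal and score columns of the deposited peak lists are the authors' own; only presence in a list was used (overlap of 1 bp or more).

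Tests were run on log2(RPKM + 1) in R 4.3.3 by limma 3.58.1, with trend and robust empirical Bayes, in 1 unfiltered fit of all 8 libraries with a term per age (4 residual degrees of freedom) and Benjamini-Hochberg adjustment over all 8996 peaks. The added 1 makes fold changes of weak peaks too small. Where an age had 1 to 3 reads the ratio of scaled reads has an exact 95% interval. The design was written for 15 libraries and was kept, with 2 libraries per age. The code was tested on simulated data with 100 changed peaks of each size. At P10 against P4 it recovered 14% of log2 changes of 2 and 56% of log2 changes of 3. Changes of such size can thus go uncalled.

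Named peaks followed a rule: in each comparison the 6 highest and 6 lowest called changes with a mean value at or above the median of all peaks, no overlap between ages and a protein-coding gene, 1 per gene; where fewer than 6 peaks were called, the 4 with the lowest unadjusted p; the 3 strongest of each class; up to 4 peaks of each of 19 gene lists with the lowest F-test p; and 15 loci, among them Nrl, Nr2e3 and Fosb. Some peaks that the rule names are not reported here. List members outside the rule that are named were chosen after their values were seen. The peaks and lists were chosen with earlier results of these data known. Same-numbered libraries of different ages deviated together with correlations of -0.01 to 0.09, so the numbers were not used to pair the samples. With 2 libraries per age these deviations mirror each other within an age, and a shared batch was not tested. Sequences and starts are from RefSeq (GRCm38.p6); peaks on chromosomes not covered there were not matched. Figures were drawn with Matplotlib 3.10.9 under Python 3.11.15, and SciPy 1.17.1, pandas 2.3.3 and NumPy 2.4.6 did the other computing.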

Additional observations from a re-analysis of the deposited data

How the results depend on the processing

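Members called at P4 against P2 (0) became 1 with a pseudocount of 0.1, 7 with a mean of at least 5 reads, 5 with limma-voom and 0 to 185 with 1 library left out. Those at P10 against P4 (365) became 1 with the pseudocount of 0.1, 104 with libraries centred, 133 with the values as deposited, 200 with limma-voom, 112 outside the peaks listed at P10 alone and 59 to 666 with 1 library left out. Those at P28 against P10 (441) became 92, 226, 199 with the deposited values, 145 outside the P10-only peaks and 118 to 622 with 1 library left out. Those at P28 against P2 (200) became 71, 64 with the deposited values, 128 outside the P10-only peaks and 106 to 296 with 1 library left out. The setting outside the P10-only peaks was chosen after seeing the data. The cause of these shifts was not tested.

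With the replicate number as a block, the calls were 11 at P4 against P2, 51 at P10 against P4 and 92 at P28 against P10; the numbers do not pair the samples, and P28 against P2 stayed within 1.5 times its count.

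For upstream minus downstream, the change of the difference of medians at P10 against P4 (-0.17) was -0.20 with the pseudocount of 0.1, -0.24 with at least 5 reads, -0.067 as deposited, -0.10 with means and -0.10 outside the P10-only peaks. At P28 against P10 (0.29) these were 0.35, 0.33, 0.24, 0.21 and 0.23. At P4 against P2 (-0.03) it was -0.084 outside the P10-only peaks, and at P28 against P2 (0.09) it was 0.13 as deposited and 0.052 outside the P10-only peaks. For near minus far, P4 against P2 (-0.09) was 0.00432 as deposited, a reversal, -0.21 outside the P10-only peaks and -0.17 to -0.0054 with 1 library left out. P10 against P4 (-0.29) was -0.40 with a near limit of 500 bp and -0.38 to -0.21 with 1 library left out. P28 against P10 (0.44) was 0.36 with an outer limit of 2000 bp, and P28 against P2 (0.06) was -0.15 outside the P10-only peaks. The Bbs9 peak at +474, called at P10 against P4, was at -0.12 as deposited (adjusted p = 0.95, limma).

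Of 102 called values at named peaks 19 were called in every setting and 39 without each library in turn; P2 replicate 4 is the shallowest library, where 3 reads at the median width are worth 2.15 RPKM.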

Other observations

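Of the peaks 1 to 3000 bp from a TSS, 24 are assigned to miRNA genes. At P10 against P4, 8 were higher and 0 lower, with a median log2 change of 1.08, and at P28 against P10, 0 were higher and 5 lower, with a median of -1.03. Over all peaks 15.6% were higher at P10 against P4 and 20.7% lower at P28 against P10, so the miRNA share lower at P28 is near that of all peaks. Mir183 belongs to a cluster of sensory-organ miRNAs, and its peak at -2977 had 3.97 and 6.74 RPKM at P2, 4.50 and 18.0 RPKM at P4, 52.1 and 42.7 RPKM at P10 and 17.7 and 18.7 RPKM at P28. Both P10 libraries lie above all others, with a log2 change of 2.24 ± 0.59 at P10 against P4 (adjusted p = 0.0122, limma). The peak of Mir148a at -956 had 2.89 and 1.83 RPKM at P28, against 15.9 and 16.8 at P10, and its log2 change was -2.38 ± 0.57 (adjusted p = 0.00521, limma). Both were chosen after their values were seen, and a peak assigned to a miRNA by distance may lie in another transcript.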
